A study of Mus musculus with 12 samples.

Results

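The genes described here mark neutrophils or draw them into tissue: the calcium-binding proteins S100a8 and S100a9, the receptors Csf3r and Cxcr2, the integrin-like gene Itgb2l, the cytokine Il1b, and the chemokines Cxcl1, Cxcl2, Cxcl5 and Ppbp. They were taken by symbol from the merged expression table, which covered 16335 genes. Of the 10 genes listed, 9 had a row, and Cxcl1 was not analysed here. RNA was measured in bulk from 12 tumors of the mouse sarcoma line BVMA01R, in 4 groups of 3 libraries. All groups share the line's genotype, a Myf5-Cre driver with p53 and Ass1 deleted (Myf5-Cre;p53-/-;Ass1-/-), and all tumors came from female C57BL/6J mice. The groups were ADI-PEG20 plus chloroquine (the combination), ADI-PEG20 alone, chloroquine alone, and no treatment. ADI-PEG20 is a pegylated arginine deiminase that breaks down extracellular arginine, and chloroquine is a weak base that blocks lysosomal acidification. Doses, times and ages are not given in the sources used here. Whether every library comes from its own mouse is not stated in the labels, so p-values measure the spread between these samples, which may be technical. The host mice keep their own immune cells, and the Cre driver and the deletions belong to the injected line.

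Neutrophils leave the marrow under the growth factor CSF3, which acts on its receptor, encoded by Csf3r. They then follow CXC chemokines that carry an ELR motif and bind CXCR2, among them those encoded by Cxcl1, Cxcl2, Cxcl5 and Ppbp. In injured or inflamed tissue IL-1β raises the output of these chemokines by stromal cells and macrophages, and NF-kappa B and AP-1 are textbook regulators of their genes. S100A8 and S100A9 form calprotectin, the most abundant protein pair of the neutrophil cytosol, which monocytes and stressed keratinocytes also make.

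The promoters of 3 of these genes are shown because Ppbp and Itgb2l had the smallest p of the 9 genes in the combination against no treatment, and Cxcl2 was lower with chloroquine without overlap. The sequences are RefSeq windows on GRCm38.p6, from 250 bases before to 50 bases after the gene start, and 8 of the 9 genes had one. Capitals mark matches to a kappa B motif (GGGNN followed directly by TTTCC) or to the AP-1 motif TGANTCA, both searched on both strands.
Cxcl2, chr5:90903649-90903948, plus strand: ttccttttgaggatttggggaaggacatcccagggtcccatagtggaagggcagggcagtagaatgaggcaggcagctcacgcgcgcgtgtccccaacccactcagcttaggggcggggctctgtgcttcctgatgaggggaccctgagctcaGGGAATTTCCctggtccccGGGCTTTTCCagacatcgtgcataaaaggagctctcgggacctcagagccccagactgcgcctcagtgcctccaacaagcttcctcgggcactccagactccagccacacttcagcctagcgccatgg
Ppbp, chr5:90768268-90768567, plus strand: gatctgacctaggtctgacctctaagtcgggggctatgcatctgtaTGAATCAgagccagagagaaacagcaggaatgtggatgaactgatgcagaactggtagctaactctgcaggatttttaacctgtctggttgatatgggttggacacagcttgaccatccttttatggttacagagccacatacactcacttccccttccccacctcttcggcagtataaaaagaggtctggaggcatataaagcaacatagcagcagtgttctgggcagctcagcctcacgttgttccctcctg
Itgb2l, chr16:96443565-96443864, minus strand: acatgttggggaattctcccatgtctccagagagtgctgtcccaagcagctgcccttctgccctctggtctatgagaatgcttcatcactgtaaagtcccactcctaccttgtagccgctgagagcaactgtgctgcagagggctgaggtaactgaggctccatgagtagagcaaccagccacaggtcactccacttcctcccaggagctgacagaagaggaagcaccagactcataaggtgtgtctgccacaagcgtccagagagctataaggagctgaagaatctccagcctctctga
The Cxcl2 window held 2 kappa B matches, at -97 and -78 from the gene start, and no other member window held one. Ppbp had 1 AP-1 match at -204, read on both strands at the same place, and no other member window held that motif. Of 32851 promoter windows of the same length, 1.63% held the kappa B letters and 7.81% held the AP-1 letters. The 2 motifs did not overlap in these windows.

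The merged table had already lost scarce genes, since its lowest total over the 12 libraries was 85 reads. The recovered depth was 15501998 to 28410940 reads per library, so 1 read was worth 0.0320 to 0.0794 CPM, the unit of reads scaled to library size. Of 9 markers listed for neutrophils, 8 (Ly6g, Retnlg, Ngp, Camp, Ltf, Cxcr1, Elane and Mpo) had no row and were not analysed here. The remaining one, the collagenase Mmp8, measured 3.98 to 10.2 CPM with the combination, 0.953 to 4.38 with ADI-PEG20, 3.42 to 4.01 with chloroquine and 1.72 to 4.40 without treatment. Several of the genes described here are also transcribed by other myeloid cells, so they are called by their names below. ADI-PEG20 1 and untreated 2 stood apart: their effective library sizes were 0.778 and 0.887 of their reads, against 0.973 to 1.10 in the other libraries, and ADI-PEG20 1 had 120 genes at 0 reads, against 7 to 43 elsewhere. Skeletal muscle markers summed to 67.6 to 118.5 CPM with the combination, 71.2 to 2365 with ADI-PEG20 (2365 in ADI-PEG20 1), 545 to 813 with chloroquine and 79.8 to 1730 without treatment (79.8 in untreated 2). Of these 10 markers 10 were lower with the combination than without treatment (median -2.10, 0 at an unadjusted p under 0.05, beside 8.65% of all genes) and 10 lower than with chloroquine (median -2.74, 5 at that p, beside 6.78%), and their part in the values below was not tested. Results are given without these libraries where they turn on them.

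The genes differed widely in level. Per kilobase of exon, the mean over 12 libraries was 6.82 CPM for Cxcl5, 5.79 for Csf3r, 4.47 for Il1b, 3.28 for S100a9, 3.07 for Ppbp, 1.31 for Itgb2l, 1.04 for Cxcl2, 1.02 for S100a8 and 0.390 for Cxcr2. On the log2 CPM scale, S100a8 and Cxcr2 lay at percentiles 1.35 and 5.38 of all genes in the table by mean level, and Csf3r at 55.2. Their spread within groups was wide as well: the pooled SD was 1.97 log2 units for Cxcr2, 1.21 for S100a9, 1.07 for S100a8, 1.05 for Cxcl5 and 1.02 for Ppbp, against a median of 0.331 over all genes. Itgb2l (0.41) and Csf3r (0.42) varied least.

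**Figure D1:**
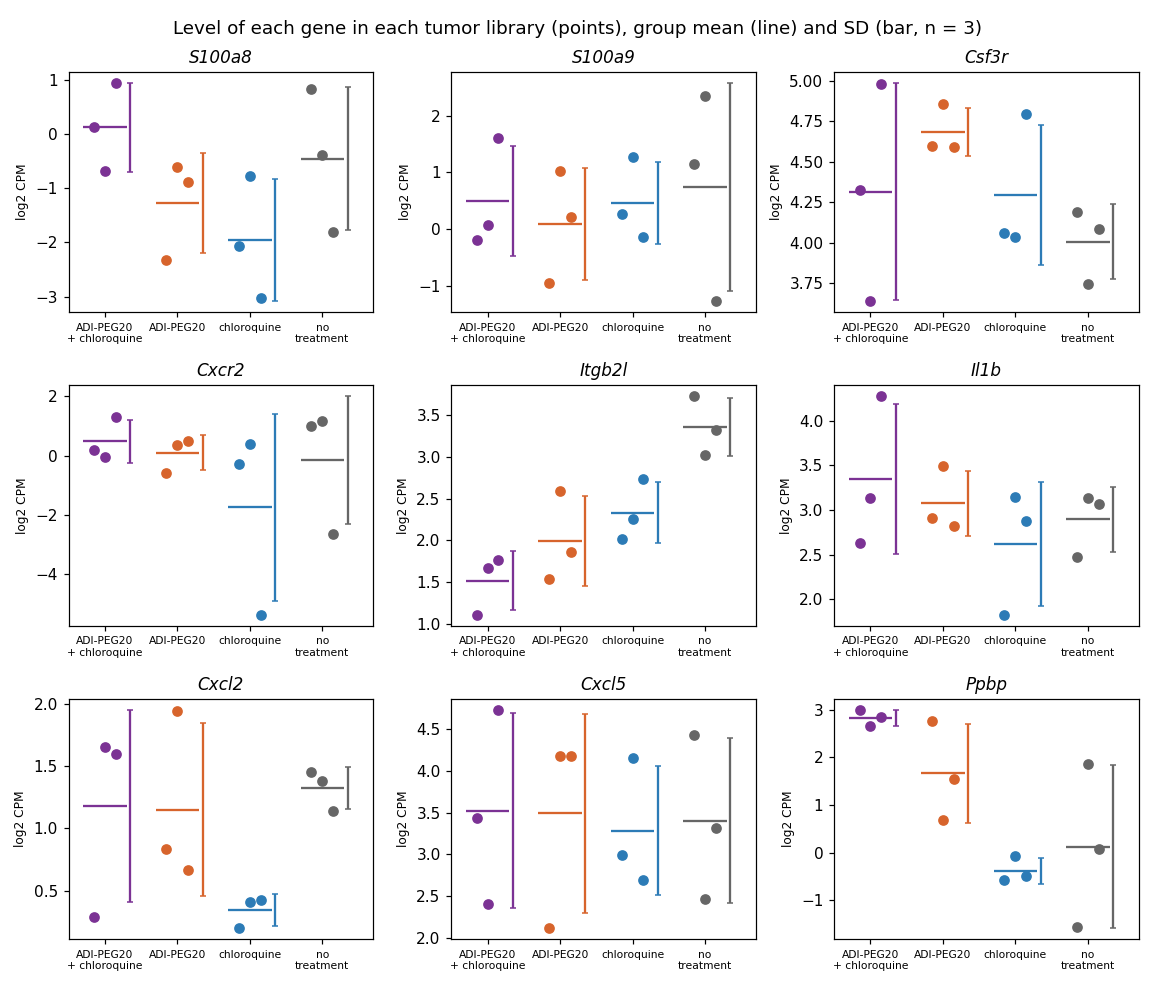
Level of each gene in each library, in log2 CPM (vertical axis of each panel, with its own range), for the 4 treatment groups; points are libraries, lines group means and bars the SD (n = 3). Itgb2l was lower in each of the 9 treated libraries than in any untreated one, Ppbp was at 6.29 to 7.92 CPM in the 3 combination libraries, and 1 chloroquine library had 0 reads for Cxcr2.

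Of the genes that mark the cells themselves, the calprotectin pair was scarce and uneven within groups. S100a8 (ENSMUSG00000056054, chromosome 3, 90668978 to 90670035, GRCm38) measured 1.07, 0.599 and 1.91 CPM in combination libraries 1 to 3, 0.159, 0.639 and 0.522 CPM with ADI-PEG20, 0.214, 0.559 and 0.0979 CPM with chloroquine, and 1.76, 0.737 and 0.255 CPM without treatment. These values rest on 2 to 44 reads. Both the combination and the single drugs overlapped with untreated tumors, while the combination lay above chloroquine alone in each library. The differences from untreated tumors on the log2 scale were 0.58 (SE 0.88, adjusted p = 0.889) with the combination, -0.82 (SE 0.88, adjusted p = 0.795) with ADI-PEG20 and -1.50 (SE 0.88, adjusted p = 0.999) with chloroquine, by limma. Without untreated 3, the combination difference was -0.09.

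S100a9 (ENSMUSG00000056071, chromosome 3, 90692632 to 90695721), which lies 22.6 kb from S100a8, measured 0.856, 1.03 and 3.00 CPM with the combination, 0.477, 2.01 and 1.13 CPM with ADI-PEG20, 1.17, 2.38 and 0.881 CPM with chloroquine, and 2.20, 5.03 and 0.383 CPM without treatment. The highest and the lowest of the 12 values were both untreated tumors, and each treated group overlapped with them. The log2 differences of -0.25, -0.65 and -0.28 for the combination, ADI-PEG20 and chloroquine (SE 0.85 each, adjusted p from 0.836 to 0.999) became 0.55, 0.15 and 0.52 without untreated 2. Without combination 1 the first was 0.09, and without chloroquine 3 the last was 0.02. Keratinocyte markers, which could share these transcripts, had 9 of 12 genes with a row, and Krt5, Krt15, Krt17 and Dsc3 were at 0 reads in some library. Their summed level was 45.3 to 94.4 CPM with the combination, 39.3 to 51.2 with ADI-PEG20, 8.16 to 26.0 with chloroquine and 6.59 to 62.0 without treatment. Of that sum Krt14, a keratin of basal epidermis, gave 52.4, 38.5 and 40.3 CPM with the combination, 32.5, 22.0 and 24.6 CPM with ADI-PEG20, 18.2, 3.78 and 18.6 CPM with chloroquine, and 3.28, 3.93 and 14.7 CPM without treatment. Of the 9 markers, 5 were higher and 4 lower with the combination than without treatment (median 0.02), and 1, Krt14, had an unadjusted p under 0.05 (8.65% of all genes). Their part in the S100a8 and S100a9 values was not tested.

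The receptor for CSF3 was the steadiest of the neutrophil receptors. Csf3r (ENSMUSG00000028859, chromosome 4, 126024550 to 126044440) measured 20.03, 12.4 and 31.6 CPM with the combination, 24.2, 29.0 and 24.1 CPM with ADI-PEG20, 16.7, 16.4 and 27.8 CPM with chloroquine, and 18.3, 13.4 and 16.9 CPM without treatment. All 3 ADI-PEG20 libraries lay above all 3 untreated ones, while the combination spanned the whole range of the study. Csf3r averaged 25.8 ± 2.77 CPM with ADI-PEG20 and 16.2 ± 2.52 CPM without treatment (SD, n = 3 each), a log2 difference of 0.68 (SE 0.30, 95% interval 0.03 to 1.33, unadjusted p = 0.0426, adjusted p = 0.590, limma). It differed by 0.31 (SE 0.30, adjusted p = 0.805) with the combination and by 0.29 (SE 0.30, adjusted p = 0.999) with chloroquine. Leaving out combination 3 gave -0.03 for the first of these. For ADI-PEG20 the authors' deposited table gives 0.66, with 95% limits of -0.10 to 1.43 and an unadjusted p of 0.0844. In bulk RNA, more cells of a type and more RNA per cell cannot be told apart.

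Cxcr2 (ENSMUSG00000026180, chromosome 1, 74153989 to 74161246), the receptor that reads the ELR chemokines, was among the scarcest genes in the table. It measured 1.11, 0.942 and 2.46 CPM with the combination, 0.635, 1.28 and 1.39 CPM with ADI-PEG20, and 1.998, 2.21 and 0.128 CPM without treatment. In chloroquine tumors it measured 0.801 and 1.31 CPM in libraries 1 and 2, and library 3 had 0 reads, which allows a level of up to 0.147 CPM. The 3 combination libraries and the 3 ADI-PEG20 libraries had 8 to 54 reads each, while 1 chloroquine and 1 untreated library had 0 and 2. Differences from untreated tumors were 0.64 with the combination, 0.26 with ADI-PEG20 and -1.58 with chloroquine (log2, SE 1.33 each, adjusted p 0.929, 0.969 and 0.999). Without untreated 3 the differences for the combination and ADI-PEG20 were -0.61 and -0.99, and without chloroquine 3 that for chloroquine was 0.23, so these libraries set the direction.

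Itgb2l stood lowest in treated tumors. It encodes a relative of the β2 integrin chain that mouse marrow neutrophils carry. Itgb2l (ENSMUSG00000000157, chromosome 16, 96422288 to 96443619) measured 2.14, 3.17 and 3.37 CPM with the combination, 2.86, 6.01 and 3.61 CPM with ADI-PEG20, 4.004, 4.75 and 6.61 CPM with chloroquine, and 13.2, 8.10 and 9.95 CPM without treatment. No treated library reached the lowest untreated one, and the 3 treated groups overlapped with one another, except that the combination lay below chloroquine alone. Group means were 2.89 ± 0.658 CPM with the combination, 4.16 ± 1.64 with ADI-PEG20, 5.12 ± 1.34 with chloroquine and 10.4 ± 2.57 without treatment (SD, n = 3 each). The combination differed from no treatment by -1.84 on the log2 scale (SE 0.34, 95% interval -2.57 to -1.11), which ranked 8 among all genes by p and had an adjusted p of 0.187 (limma), the smallest of that comparison, shared with other genes. ADI-PEG20 differed by -1.36 (SE 0.34, adjusted p = 0.481) and chloroquine by -1.02 (SE 0.34, adjusted p = 0.999). The authors' deposited table gives -1.89 for the combination, with an adjusted p of 0.12.

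The neighbour of Itgb2l followed it closely. Igsf5, an immunoglobulin superfamily gene of epithelial tight junctions (ENSMUSG00000000159, chromosome 16, 96361668 to 96422121), lies on the opposite strand and its end comes within 166 bases of the end of Itgb2l. It measured 5.13, 5.78 and 6.69 CPM with the combination, 5.56, 13.0 and 7.97 CPM with ADI-PEG20, 7.85, 14.7 and 14.7 CPM with chloroquine, and 26.6, 20.7 and 15.1 CPM without treatment. Igsf5 too lay lower in each treated library than in any untreated one, with log2 differences of -1.79 for the combination (SE 0.34, adjusted p = 0.198), -1.28 for ADI-PEG20 (SE 0.34, adjusted p = 0.481) and -0.76 for chloroquine (SE 0.34, adjusted p = 0.999). Of 14891 genes searched it was the one most like Itgb2l over the 12 libraries (r = 0.95, rho = 0.98, chosen for this likeness), and r of deviations from the group means was 0.81. A second GENCODE M21 gene, also named Igsf5, spans Itgb2l without sharing an exon. Whether the authors' counting used strand is not given in the sources used here, so reads that run past the end of one gene into the other cannot be told apart. Among the other genes with a row within 250 kb, Lca5l, a ciliary protein gene, differed by -0.56 (SE 0.35, adjusted p = 0.677) with the combination. Dscam (-3.05, SE 1.22, adjusted p = 0.539), a neural adhesion molecule, and Sh3bgr (-3.30, SE 1.07, adjusted p = 0.441), a gene of heart and skeletal muscle, lay lower in the combination than in each untreated library.

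Il1b, the cytokine, did not separate the groups. Il1b (ENSMUSG00000027398, chromosome 2, 129364570 to 129371139) measured 6.16, 8.78 and 19.3 CPM with the combination, 7.47, 11.2 and 7.05 CPM with ADI-PEG20, 3.52, 8.86 and 7.34 CPM with chloroquine, and 5.55, 8.78 and 8.35 CPM without treatment. Combination 3 held the highest value and chloroquine 1 the lowest. Log2 differences from untreated tumors were 0.45 (SE 0.42, adjusted p = 0.798) with the combination, 0.18 (SE 0.42, adjusted p = 0.923) with ADI-PEG20 and -0.28 (SE 0.42, adjusted p = 0.999) with chloroquine. They were -0.01 without combination 3, -0.03 without ADI-PEG20 2 or untreated 1, and 0.12 without chloroquine 1. Il1b shares exon sequence with the antisense gene Il1bos, and without a stated strand setting reads of the pair cannot be told apart.

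Among the chemokines, Cxcl2, a CXCR2 ligand that macrophages release early in inflammation, was lowest in chloroquine tumors. Cxcl2 (ENSMUSG00000058427, chromosome 5, 90903871 to 90905938) measured 1.198, 3.13 and 3.00 CPM with the combination, 1.75, 3.84 and 1.57 CPM with ADI-PEG20, 1.12, 1.31 and 1.32 CPM with chloroquine, and 2.72, 2.58 and 2.17 CPM without treatment. The chloroquine libraries lay close together and below all untreated ones, on 21 to 28 reads each. Cxcl2 averaged 1.25 ± 0.111 CPM with chloroquine and 2.49 ± 0.286 CPM without treatment (SD, n = 3 each), a log2 difference of -0.98 (SE 0.45, 95% interval -1.96 to 0.00, unadjusted p = 0.0504, adjusted p = 0.999, limma). It differed by -0.15 with the combination and -0.17 with ADI-PEG20 (SE 0.45, adjusted p 0.954 and 0.930). These were 0.30 without combination 1 and 0.07 without ADI-PEG20 3. The promoter with the kappa B matches is that of Cxcl2, and the window gives no measure of binding in these tumors.

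Cxcl5, an ELR chemokine made mostly by epithelial and stromal cells and platelets, had the highest level per kilobase of the 9 genes and varied several-fold inside each group. Cxcl5 (ENSMUSG00000029371, chromosome 5, 90759360 to 90761624) measured 10.8, 5.27 and 26.6 CPM with the combination, 4.29, 18.2 and 18.1 CPM with ADI-PEG20, 7.96, 17.9 and 6.46 CPM with chloroquine, and 21.5, 5.46 and 9.95 CPM without treatment. All 4 groups overlapped. Differences from untreated tumors were 0.12, 0.09 and -0.12 for the combination, ADI-PEG20 and chloroquine (log2, SE 0.68, adjusted p 0.974, 0.979 and 0.999), and their 95% intervals ran from -1.35 to 1.59, -1.38 to 1.56 and -1.59 to 1.35. The direction rested on single libraries: the combination was at -0.48 without combination 3 and -0.35 without untreated 2. ADI-PEG20 was at -0.25 without its library 2 or its library 3 and at -0.38 without untreated 2. Chloroquine was at 0.03 without its library 1, 0.18 without its library 3 and 0.40 without untreated 1.

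Ppbp was highest with the combination. It encodes pro-platelet basic protein, which platelets store in their alpha granules and which neutrophil proteases trim to the CXCR2 ligand CXCL7. Ppbp (ENSMUSG00000029372, chromosome 5, 90768518 to 90770063), 6.89 kb from Cxcl5, measured 7.92, 6.29 and 7.23 CPM with the combination, 6.75, 1.60 and 2.92 CPM with ADI-PEG20, 0.641, 0.932 and 0.685 CPM with chloroquine, and 0.320, 3.62 and 1.02 CPM without treatment. The combination lay above each chloroquine and each untreated library, while ADI-PEG20 1 reached into its range and untreated 2 lay above the other two of its group. Means were 7.15 ± 0.814 CPM with the combination, 3.75 ± 2.68 with ADI-PEG20, 0.753 ± 0.157 with chloroquine and 1.65 ± 1.74 without treatment (SD, n = 3 each). The combination differed from no treatment by 2.71 on the log2 scale (SE 0.71, 95% interval 1.17 to 4.24, unadjusted p = 0.00209, adjusted p = 0.371, limma), ADI-PEG20 by 1.54 (SE 0.71, adjusted p = 0.598) and chloroquine by -0.51 (SE 0.71, adjusted p = 0.999). Without untreated 2 these differences were 3.58, 2.41 and 0.36, and without untreated 1 the combination difference was 1.86. Without both ADI-PEG20 1 and untreated 2, an alternative chosen after seeing the data, the combination difference of 3.58 had an adjusted p of 0.0464. In the authors' deposited table the combination difference is 3.01, with 95% limits of 1.75 to 4.27 and an adjusted p of 0.175.

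**Figure D2:**
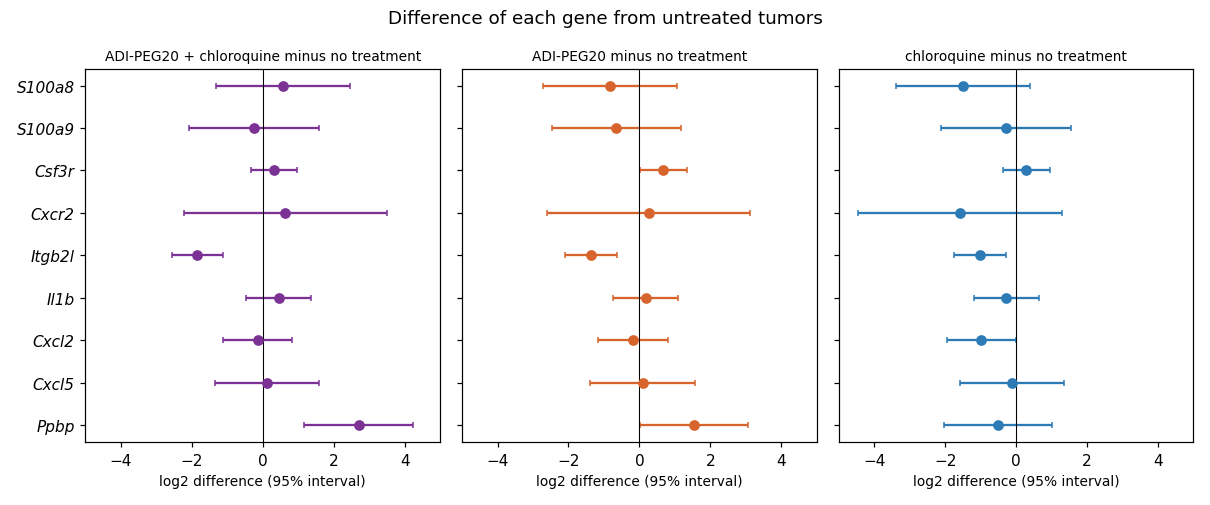
Difference of each gene from untreated tumors on the log2 CPM scale (horizontal axis), with its unadjusted 95% interval from the limma fit, for the combination, ADI-PEG20 and chloroquine (3 libraries per group). Itgb2l lies below 0 in all 3 panels, at -1.84, -1.36 and -1.02, and Ppbp lies at 2.71, 1.54 and -0.51.

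Ppbp ran beside Mrc1, a macrophage gene, and beside its own neighbour Pf4. Among the genes most like it of 14891 searched were Mrc1, the macrophage mannose receptor (r = 0.94, rho = 0.92), and P2ry6, a nucleotide receptor (r = 0.91, rho = 0.88), over 12 libraries. Mrc1 measured 197, 188 and 146 CPM with the combination, 139, 95.1 and 129 CPM with ADI-PEG20, 61.1, 92.2 and 62.9 CPM with chloroquine, and 61.9, 118 and 61.7 CPM without treatment. It was high in the same untreated library, number 2, as Ppbp. Its deviations from the group means correlated with those of Ppbp at r = 0.79. Mrc1 differed by 1.19 (SE 0.26, adjusted p = 0.263) with the combination, 0.64 (SE 0.26, adjusted p = 0.553) with ADI-PEG20 and -0.12 (SE 0.26, adjusted p = 0.999) with chloroquine.

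Pf4, the platelet chemokine gene 2.37 kb from Ppbp, correlated with it at r = 0.84 and measured 20.8, 23.5 and 16.4 CPM with the combination, 15.2, 11.6 and 13.9 CPM with ADI-PEG20, 6.51, 15.01 and 7.78 CPM with chloroquine, and 8.59, 21.2 and 9.63 CPM without treatment. Its combination and untreated libraries overlapped (0.73, SE 0.35, adjusted p = 0.590), while its combination libraries lay above the chloroquine ones (1.13, SE 0.35, adjusted p = 0.544). Of 9 platelet and megakaryocyte markers 6 had a row, none at 0 reads in any library, and they summed to 33.0 to 44.1 CPM with the combination, 27.0 to 53.9 with ADI-PEG20, 22.0 to 25.3 with chloroquine and 19.5 to 42.0 without treatment. Of these 6, 5 were higher and 1 lower with the combination than without treatment, and none passed. Against chloroquine 6 of 6 were higher (median 0.76) and Itga2b, Gp9 and Tubb1 had an unadjusted p under 0.05, beside 6.78% of all genes, and again none passed. Tubb1, the platelet tubulin, measured 3.68, 4.37 and 1.91 CPM with the combination and 0.919, 5.09 and 0.638 CPM without treatment. All 12 macrophage and monocyte markers had a row, none at 0 reads in any library, and they summed to 1701 to 2206 CPM with the combination, 1494 to 2145 with ADI-PEG20, 1169 to 1511 with chloroquine and 1180 to 1458 without treatment. The part of these cell types in the Ppbp values was not tested.

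**Figure D3:**
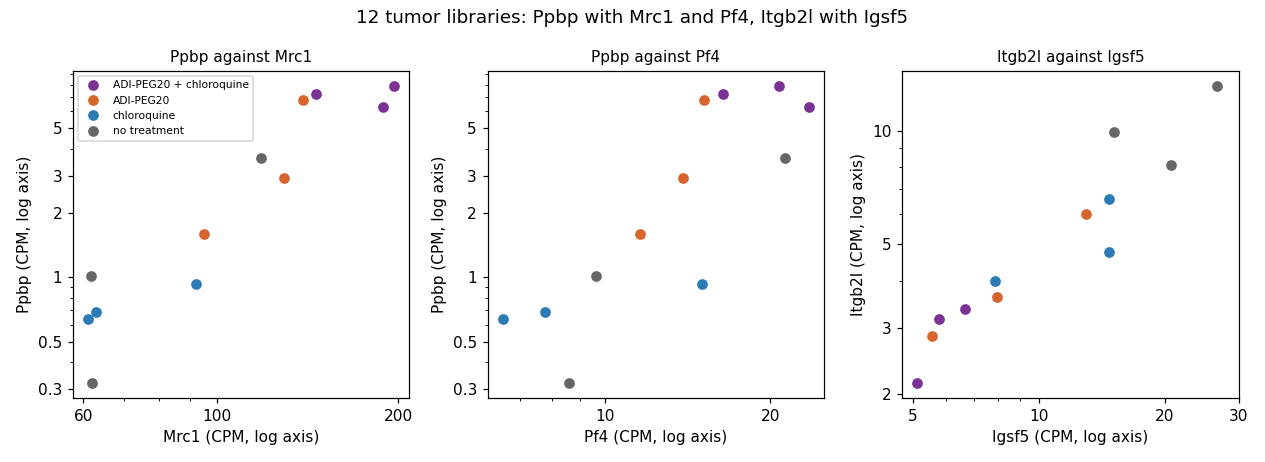
Each point is 1 of 12 libraries, coloured by treatment, in CPM on log axes: Ppbp against Mrc1, Ppbp against its neighbour Pf4, and Itgb2l against its neighbour Igsf5. Pearson r on log2 CPM is 0.94, 0.84 and 0.95, and the genes of the first and last panel were paired because their patterns were alike.

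Counted over the comparisons, no gene of the 9 passed an adjusted p of 0.05, and neither did any gene in the table (0% of 16335 in each of the 6 comparisons, limma). At an unadjusted p under 0.05, 2 of 9 passed with the combination against no treatment (Ppbp higher, Itgb2l lower), beside 8.65% of all genes, or 1413. With ADI-PEG20 3 of 9 passed (Csf3r and Ppbp higher, Itgb2l lower), beside 8.31%, or 1357 genes, and with chloroquine 1 of 9 (Itgb2l lower), beside 3.4%, or 555 genes. The ADI-PEG20 count was 1 to 2 of 9 with 1 library left out, and 1 to 3 over 10 other alternatives. In the authors' deposited table Itgb2l had an unadjusted p of 0.00193 with ADI-PEG20, while Csf3r (0.0844) and Ppbp (0.0502) did not reach 0.05. Counts of libraries that do not overlap gave 2 of 9 in each comparison: Ppbp and Itgb2l with the combination beside 15.4% of all genes, Csf3r and Itgb2l with ADI-PEG20 beside 10.1%, and Cxcl2 and Itgb2l with chloroquine beside 7.41%. The median difference of the 9 genes was 0.31 with the combination (6 above 0), 0.09 with ADI-PEG20 (5 above 0) and -0.51 with chloroquine (1 above 0). The medians over all genes were 0.01, -0.01 and 0.00. The 3 comparisons share the untreated libraries, so these counts are not independent of one another.

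The combination was also set against each single drug, which asks what the second drug adds. Against ADI-PEG20 alone, 0 of 9 genes had an unadjusted p under 0.05 (3.42% of all genes) and 0 of 9 had groups that did not overlap (9.16%). The 3 with the smallest p were Ppbp (1.17, SE 0.71, 95% interval -0.37 to 2.70), S100a8 (1.403, SE 0.88, -0.48 to 3.29) and Itgb2l (-0.48, SE 0.34, -1.21 to 0.24). With voom and library quality weights the Ppbp difference was 1.57 (unadjusted p = 0.00129, adjusted p = 0.9998), and the authors' deposited table gives 1.604 for it (95% interval 0.754 to 2.45, unadjusted p = 0.00123, adjusted p = 0.9996). Over 10 alternatives, 0 to 1 of the 9 had an unadjusted p under 0.05. Against chloroquine alone, Ppbp differed by 3.22 (SE 0.71, 95% interval 1.69 to 4.75, unadjusted p = 0.000541, adjusted p = 0.491, limma), ranking 16 among all genes. Itgb2l differed by -0.82 (SE 0.34, adjusted p = 0.693) and S100a8 by 2.09 (SE 0.88, adjusted p = 0.695), or by 0.74 (adjusted p = 0.703) on the log2(CPM + 1) scale. These 3 of 9 had an unadjusted p under 0.05 (6.78% of all genes), and the same 3 had groups that did not overlap (18.4% of all genes). Fitted on the 6 libraries of that comparison alone, the Ppbp difference of 3.22 had an adjusted p of 0.00756. The authors' deposited table gives 3.22 with an adjusted p of 0.0581.

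The interaction asks whether ADI-PEG20 acted differently with chloroquine than without it. At an unadjusted p under 0.05 it held 1 of the 9 genes, S100a8, beside 4.26% of all genes. The S100a8 interaction was 2.91 (SE 1.24, 95% interval 0.24 to 5.58, unadjusted p = 0.0350, adjusted p = 0.825, limma). On the log2(CPM + 1) scale it was 1.09 (unadjusted p = 0.0313), with voom and library quality weights 2.31 (unadjusted p = 0.0712), and without both ADI-PEG20 1 and untreated 2 it was 2.34 (unadjusted p = 0.107). ADI-PEG20 libraries were lower than untreated ones on average, and combination libraries higher than chloroquine ones. Ppbp had an interaction of 1.68 (SE 1.005, unadjusted p = 0.119) and Cxcl2 of 1.01 (SE 0.64, unadjusted p = 0.141).

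Across the 12 tumors, S100a8 and Cxcr2 varied together. Of 36 pairs of the 9 genes, theirs had r = 0.78 (permutation p = 0.00039, adjusted over the pairs 0.0140) and rho = 0.82 (permutation p = 0.00181, adjusted 0.0326). Without combination 3 and chloroquine 3, the 2 libraries farthest from the median of S100a8, r was 0.66, and r of the deviations from the group means was 0.80. S100a9 and Cxcr2 had rho = 0.84 (permutation p = 0.00103, adjusted 0.0326), with r = 0.60 (permutation p = 0.0341, adjusted 0.205), 0.48 without untreated 2 and untreated 3, and 0.71 within groups. S100a8 with S100a9 had r = 0.62 (permutation p = 0.0309, adjusted 0.205) and rho = 0.59 (permutation p = 0.0485, adjusted 0.249). S100a8 with Cxcl5 had r = 0.64 (permutation p = 0.0263, adjusted 0.205) and rho = 0.61 (permutation p = 0.0408, adjusted 0.249), with r = 0.51 without combination 3 and chloroquine 3 and 0.80 within groups. Csf3r had r of -0.03, -0.07 and -0.18 with S100a8, S100a9 and Cxcr2 (permutation p 0.912, 0.825 and 0.598). Both genes of a pair share each library's depth and composition, and the levels of the scarce trio carry counting error.

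Ppbp and Itgb2l ran opposite to each other (r = -0.74, permutation p = 0.00692, adjusted 0.125, and rho = -0.75, permutation p = 0.00698, adjusted 0.0838), with r = -0.55 without combination 1 and untreated 1, and -0.71 within groups. Il1b and Cxcl2, cytokine and chemokine, had r = 0.62 (permutation p = 0.0240, adjusted 0.205) and rho = 0.59 (permutation p = 0.0456, adjusted 0.249). In the chemokine cluster on chromosome 5, Ppbp had r = -0.24 with Cxcl5 (permutation p = 0.450). With Cxcl2, 134 kb away, it had r = 0.17 (permutation p = 0.585), and with Pf4 of the same cluster r = 0.84. Cxcl3, another ELR chemokine of the cluster, averaged 0.982 CPM and differed by -0.03 with the combination (SE 0.63, adjusted p = 0.991).

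**Figure D4:**
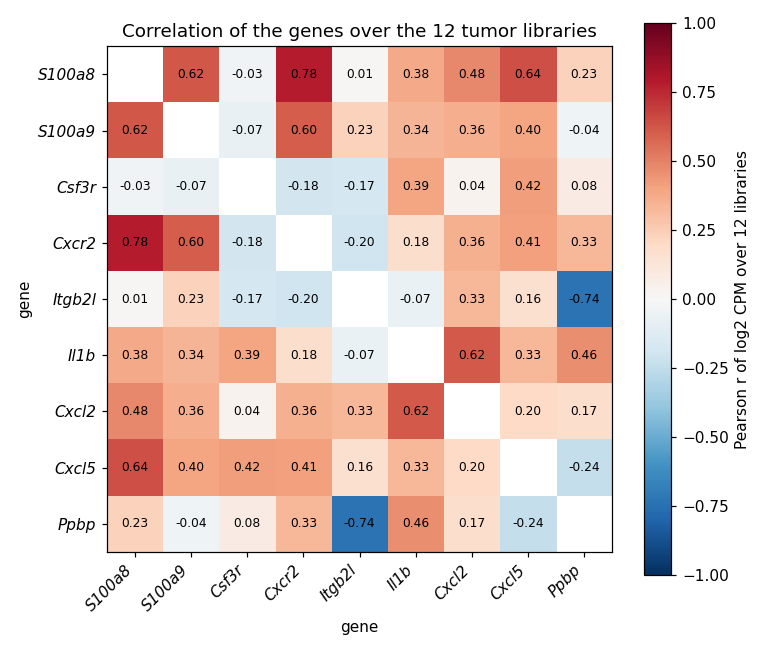
Pearson r of log2 CPM over the 12 libraries for each pair of the 9 genes, from -1 (blue) to 1 (red). S100a8, S100a9 and Cxcr2 form a red block at 0.60 to 0.78, and Csf3r is at -0.03 to -0.18 with these genes. S100a8 with Cxcl5 is at 0.64, Csf3r with Cxcl5 is at 0.42, and Ppbp with Itgb2l is the lowest pair at -0.74.

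The remaining genes resembled different companions, by Pearson r over the 12 libraries among the same 14891 genes. Csf3r was most like Icosl, the ICOS ligand (r = 0.90), Sorl1, a sorting receptor (r = 0.89), and Fchsd2, an endocytic adaptor (r = 0.89). Icosl lay higher in each ADI-PEG20 library than in any untreated one, at 15.6, 13.5 and 15.8 CPM with ADI-PEG20 and 7.15, 6.02 and 10.3 CPM without treatment. Il1b was most like Bcl2a1a, a survival gene of the BCL2 family with near-identical copies among which reads may be split (r = 0.84), Cd14, the myeloid co-receptor for lipopolysaccharide (r = 0.84), and Muc1, an epithelial mucin (r = 0.81). S100a8 was most like Stx12 (r = 0.92), S100a9 like Harbi1 (0.88), Cxcr2 like Gm15971 (0.89), Cxcl2 like Trim33 (0.87) and Cxcl5 like Gm24727 (0.87). No myeloid marker on the lists was among the top 3 for these 5 genes.

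Other neutrophil genes gave a partial view, since 19 of the 35 on a list of granule, receptor and differentiation genes had a row. With the combination 16 of the 19 were higher than without treatment and 3 lower, with a median of 0.53 against 0.01 over all genes, and 7 had an unadjusted p under 0.05, each higher, beside 8.65% of all genes in either direction. With ADI-PEG20 13 were higher (median 0.37), and 4 had that p beside 8.31% of all genes. With chloroquine 11 were higher (median 0.33), and 1, Clec4d, had that p, lower, beside 3.4% of all genes. None passed the adjusted threshold. The leaders are shared with macrophages: Itgb2, the β2 integrin chain, averaged 45.3 CPM with the combination, 45.7 with ADI-PEG20, 39.4 with chloroquine and 30.8 without treatment, and differed by 0.55 (SE 0.18, adjusted p = 0.463) with the combination. Itgam, its αM partner, differed by 0.46 (SE 0.16, adjusted p = 0.474), and Ncf4, a subunit of the phagocyte oxidase, by 0.85 with ADI-PEG20 (SE 0.25, adjusted p = 0.513). Chil3, a chitinase-like protein of macrophages and neutrophils, measured 9.59, 3.55 and 2.09 CPM with the combination and 0.240, 0.430 and 3.44 CPM without treatment (2.48, SE 0.87, adjusted p = 0.469). Of the 12 macrophage markers, 11 were higher with the combination and 9 had an unadjusted p under 0.05 (8.65% of all genes), and with ADI-PEG20 12 were higher and 8 had one (8.31% of all genes). Their part in this list was not tested.

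The IL-1 pathway had 18 of 19 genes with a row, and 15 were higher with the combination (median 0.21), 11 with ADI-PEG20 (median 0.07) and 7 with chloroquine (median -0.15). An unadjusted p under 0.05 (limma) was found for 2 with the combination (Casp1 and Irak2, higher), beside 8.65% of all genes. It was found for 1 with ADI-PEG20 (Casp1, higher), beside 8.31%, and 1 with chloroquine (Il1rn, lower), beside 3.4%. Casp1, the protease that matures IL-1β, averaged 6.96 CPM with the combination, 7.41 with ADI-PEG20, 5.24 with chloroquine and 2.93 without treatment. It differed by 1.31 (SE 0.38, adjusted p = 0.403) with the combination and 1.37 (SE 0.38, adjusted p = 0.481) with ADI-PEG20. Neither group overlapped with untreated tumors, as held for 15.4% and 10.1% of all genes. Il1rn, the natural antagonist of the IL-1 receptor, averaged 15.9 CPM with the combination, 12.3 with ADI-PEG20, 4.09 with chloroquine and 9.08 without treatment, and differed by -1.14 with chloroquine (SE 0.50, adjusted p = 0.999). Ptgs2, the inducible prostaglandin synthase, differed by -0.91 with chloroquine (SE 0.50, adjusted p = 0.999) and Irak2, a kinase below the IL-1 receptor, by 0.51 with the combination (SE 0.23, adjusted p = 0.570). None of the 18 passed in any comparison.

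Of 12 other CXCR2 ligands, growth factors and their receptors 7 had a row, and none passed. Tnf averaged 3.25 CPM with the combination, 3.01 with ADI-PEG20, 1.48 with chloroquine and 1.86 without treatment, a difference of 0.95 with the combination (SE 0.44, adjusted p = 0.572). Csf2ra, a subunit of the GM-CSF receptor, differed by 0.92 with ADI-PEG20 (SE 0.33, adjusted p = 0.524), and Csf3, the ligand of the receptor encoded by Csf3r, averaged 1.28, 1.08, 1.52 and 0.714 CPM in the combination, ADI-PEG20, chloroquine and untreated groups. Mif, a cytokine that also binds CXCR2 and the most abundant gene of this list, differed by -0.57 with ADI-PEG20 (SE 0.30, adjusted p = 0.620). Of 6 endothelial adhesion genes 5 had a row, and with the combination 3 were higher and 2 lower than without treatment (median 0.10). Only 1, Vcam1, had an unadjusted p under 0.05 there (limma), beside 8.65% of all genes. Vcam1 averaged 145 CPM with the combination, 91.0 with ADI-PEG20, 89.2 with chloroquine and 80.6 without treatment. It differed by 0.85 with the combination (SE 0.23, adjusted p = 0.390). Icam1, which binds the β2 integrins of neutrophils, differed by 0.52 (SE 0.30, adjusted p = 0.650) in the same comparison.

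Among CXC chemokines without the ELR motif, 8 of 10 genes had a row. Cxcl9, which draws T cells through CXCR3, measured 25.4, 8.86 and 32.6 CPM with the combination, 23.7, 19.4 and 31.6 CPM with ADI-PEG20, 27.6, 31.7 and 31.1 CPM with chloroquine, and 11.9, 4.66 and 13.4 CPM without treatment. It differed by 1.73 with chloroquine (SE 0.45, adjusted p = 0.999) and by 1.42 with ADI-PEG20 (SE 0.45, adjusted p = 0.519), and neither overlapped with untreated tumors. Cxcl9 lay above untreated tumors in the chloroquine libraries, where Cxcl2 lay below them. Cxcl10, of the same receptor, differed by 0.84 with chloroquine (SE 0.38, adjusted p = 0.999), and Cxcl12, the most abundant of this list at a mean of 271 CPM, was not among the 3 genes with the smallest p in any comparison with no treatment. None of the 8 passed.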

How the data were processed

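RNA of 12 tumors was analysed from the authors' merged table, whose deposited values per library are log2 CPM. Tools in the submitters' processing notes, which give no role or order, are limma, edgeR, Salmon 0.8.2, featureCounts 1.4.6-p5 of Subread, STAR 2.5.1a and bcl2fastq, with the build mm10. Per the labels, ribosomal RNA was depleted. Of 16386 lines, 51 repeats of a gene were dropped. The same deposited table holds the authors' log2 fold changes with p-values, and a signed linear fold change (a score) that was not used. The deposited log2 CPM came back to whole reads within 0.02 for 100% of values under 2000 reads. Printed CPM and read counts are those, without the offset of 0.5 reads. Floors (3 reads) cover counting error only, while the 95% intervals of the limma fit rest on the spread between libraries.

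All genes were fitted with limma 3.58.1 (R 4.3.3) on log2 CPM, 12 libraries together, without covariates, with a trend, two-sided, with Benjamini-Hochberg adjustment over 16335 genes and a threshold of 0.05. A fitted value of a library with 0 reads rests on the offset. Correlations used 100000 permutations. The test was checked on simulated data. No batch is given in the labels. Alternatives covered scaling, offset, weights, filters, a replicate block and left-out libraries. The genes and lists were chosen with earlier results of these data known. Named genes were each member, the 3 genes of each list with the smallest p against no treatment and its 2 most abundant, the 3 genes most like each member (1 of them is not reported here), and, chosen after their values were seen, neighbouring genes. Gene positions are from GENCODE M21. Deposited pathway tables were not used here.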

Additional observations from a re-analysis of the deposited data

How the results depend on the processing

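Same-numbered libraries of different groups had deviations from the group means correlated at -0.05 to 0.20 over 18 pairs. Pairs of other numbers had -0.24 to 0.19 over 36 pairs. Of 12 libraries, 9 were closest to a library of their own number, so a pairing by number is not excluded. The main fit had no replicate block. With the replicate block, 8 genes and none of the 9 described here passed in the combination against no treatment. Of 588 values of 36 differences under alternatives, 551 kept their direction and side of the threshold, 35 reversed and 2 came to pass it. Of the 36 differences, 17 reversed in some setting. None had passed the threshold in the main fit, so keeping its side says little about stability. In the combination against chloroquine, 72 genes and 1 of the 9 (Ppbp, adjusted p = 0.00756) passed when the compared libraries alone were fitted, and 1 gene with voom and library quality weights. Without ADI-PEG20 1 and untreated 2 together, an alternative chosen after seeing the data, 17 genes and 1 of the 9 passed for the combination against no treatment. In the same setting S100a9 turned to 0.67 with ADI-PEG20, 0.52 with chloroquine and 0.55 with the combination, Cxcl2 to 0.012 with ADI-PEG20, Ppbp to 0.36 with chloroquine and Cxcl5 to -0.35 with the combination. Voom with quality weights turned S100a9 to 0.24 with the combination, 0.15 with ADI-PEG20 and 0.24 with chloroquine, and log2(CPM + 1) turned Cxcr2 to -0.094 with ADI-PEG20. The cause was not tested. Leaving out 1 library at a time gave 0 to 1 genes passing with ADI-PEG20 against no treatment (1 without untreated 3).

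The same step gave these ranges for the differences that turned. With the combination they were -0.095 to 1.22 for S100a8, -1.25 to 0.55 for S100a9, -0.025 to 0.65 for Csf3r, -0.61 to 1.30 for Cxcr2, -0.38 to 0.30 for Cxcl2, -0.48 to 0.68 for Cxcl5 and -0.012 to 0.81 for Il1b. With ADI-PEG20 they were -1.65 to 0.15 for S100a9, -0.99 to 0.92 for Cxcr2, -0.57 to 0.067 for Cxcl2, -0.38 to 0.78 for Cxcl5 and -0.030 to 0.30 for Il1b. With chloroquine they were -1.28 to 0.52 for S100a9, -2.83 to 0.23 for Cxcr2, -0.59 to 0.40 for Cxcl5, -1.35 to 0.36 for Ppbp and -0.54 to 0.12 for Il1b. Itgb2l stayed between -2.01 and -1.64 with the combination, -1.66 and -1.13 with ADI-PEG20 and -1.22 and -0.84 with chloroquine, and Ppbp between 1.86 and 3.58 with the combination. Depth limits S100a8 and Cxcr2 most, at 2 to 44 and 0 to 54 reads per library. The filter of 10 reads in 3 libraries kept all 16335 genes and that of 1 CPM kept 16239.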
